A study of Mus musculus with 6 samples.

Results

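Collagen is made in steps, and each step has its own enzymes. In the endoplasmic reticulum (ER), prolyl 4-hydroxylase converts proline to 4-hydroxyproline, which keeps the triple helix stable at body temperature, lysyl hydroxylases convert lysine to hydroxylysine, and the chaperone HSP47 holds the finished helix. Outside the cell, lysyl oxidases use copper to oxidize lysine and hydroxylysine, and the aldehydes that form link neighbouring collagen and elastin molecules to each other. In cartilage these links hold the collagen network together, and their number and chemistry set its stiffness.

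The genes described here are 10 of the 16880 in the deposited table: the lysyl oxidases Lox, Loxl1, Loxl2 and Loxl3, the catalytic prolyl 4-hydroxylase subunits P4ha1 and P4ha2, the lysyl hydroxylases Plod1, Plod2 and Plod3, and Serpinh1, which encodes HSP47. In build mm10 they are spread over 9 chromosomes, with Loxl1 and Plod2 both on chromosome 9, at 58287723 to 58313212 and 92539636 to 92608428. Loxl3 lies on chromosome 6 at 83034205 to 83052566 and Serpinh1 on chromosome 7 at 99345375 to 99353239. They were chosen by symbol as a family, with their counts and TPM in the comparison reported here already known. Their changes are therefore given as a description, with standard errors and no p-values. TPM is a level per length of transcript, scaled to the same total in every library, so that levels of different genes can be set side by side.

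RNA was sequenced from cells that the sample titles name as ATDC5, a mouse chondrogenic cell line that came from a teratocarcinoma. All 6 libraries came from cells given the inflammatory cytokine IL-1β at 10 ng/mL, and 3 of them also received NP-G2-044, a small-molecule inhibitor of the actin-bundling protein FSCN1, at 10 μM. According to the methods the treatment lasted a day and the 3 libraries of a group were biological replicates. The RNA-sequencing methods speak only of chondrocytes, and the culture methods describe primary mouse chondrocytes and do not name ATDC5. The titles of the inhibitor samples give NP-G2-044, whereas their treatment label reads NP-G2-047. Cells without IL-1β were not analysed here, so each value compares inhibited with uninhibited cells under the cytokine. P-values measure only the spread between these libraries, since the labels do not say that the cultures were separate.

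Totals ran from 16615824 to 16878164 reads with IL-1β and from 17529844 to 17735860 reads with the inhibitor. Squared differences between libraries of a group were 1.54 to 2.39 times those of read sampling, against 133 to 136 times between groups, so no pair of libraries agreed within read sampling and none was merged. Fscn1 itself fell from 616 ± 9.47 TPM to 252 ± 2.47 TPM (± SD, 3 libraries each). The label of the cells as chondrogenic was checked against 14 chondrocyte markers. Of the 9 analysed here, 6 stayed under 1 TPM in every library, among them Col2a1, and Sox9, Sox5 and Col11a2 were the highest. The summed level of the 9 was 22.4 to 23.3 TPM with IL-1β and 17.6 to 18.4 TPM with the inhibitor. This sum hides opposite changes. Sox9 rose from 6.44 to 11.4 TPM, whereas Sox5 fell from 10.3 to 2.27 TPM and Col11a2 from 5.01 to 3.43 TPM. Of 9 fibroblast markers 3 stayed under 1 TPM, and the summed level was 1139 to 1185 TPM against 357 to 373 TPM, nearly all of it Col1a2. Among the 6 fibroblast markers tested, 5 fell and 1 rose. Osteoblast markers summed to 23.4 to 25.9 TPM against 12.4 to 13.6 TPM, led by Runx2. Endothelial, muscle and epithelial markers summed to at most 0.55 TPM in any library. Macrophage markers summed to 11.3 to 14.4 TPM against 124 to 135 TPM, and this was the lysosomal gene Cd68, since the other 4 of 5 stayed under 1 TPM and Ptprc was at 0 throughout. The part of these marker differences in the changes of the 10 genes was not tested.

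The lysyl oxidase Lox showed by far the largest change of the 10 genes. Under IL-1β alone it had 148, 159 and 152 TPM, and with the inhibitor 8.57, 9.78 and 9.23 TPM. Every inhibitor library lay far below every IL-1β library, and the reads went from 21963 to 1400 over the groups. The mean was 153 ± 5.38 TPM against 9.19 ± 0.606 TPM (± SD, 3 libraries each), 16.5-fold lower, a log2 fold change of −4.04 (standard error 0.0397). Of the 11983 genes tested, 81 had a lower log2 fold change. In bulk RNA, less Lox RNA per cell and fewer cells that express it cannot be told apart. Exons of an antisense transcript overlap those of Lox over 30 bases, 0.628% of its exonic length.

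**Figure D1:**
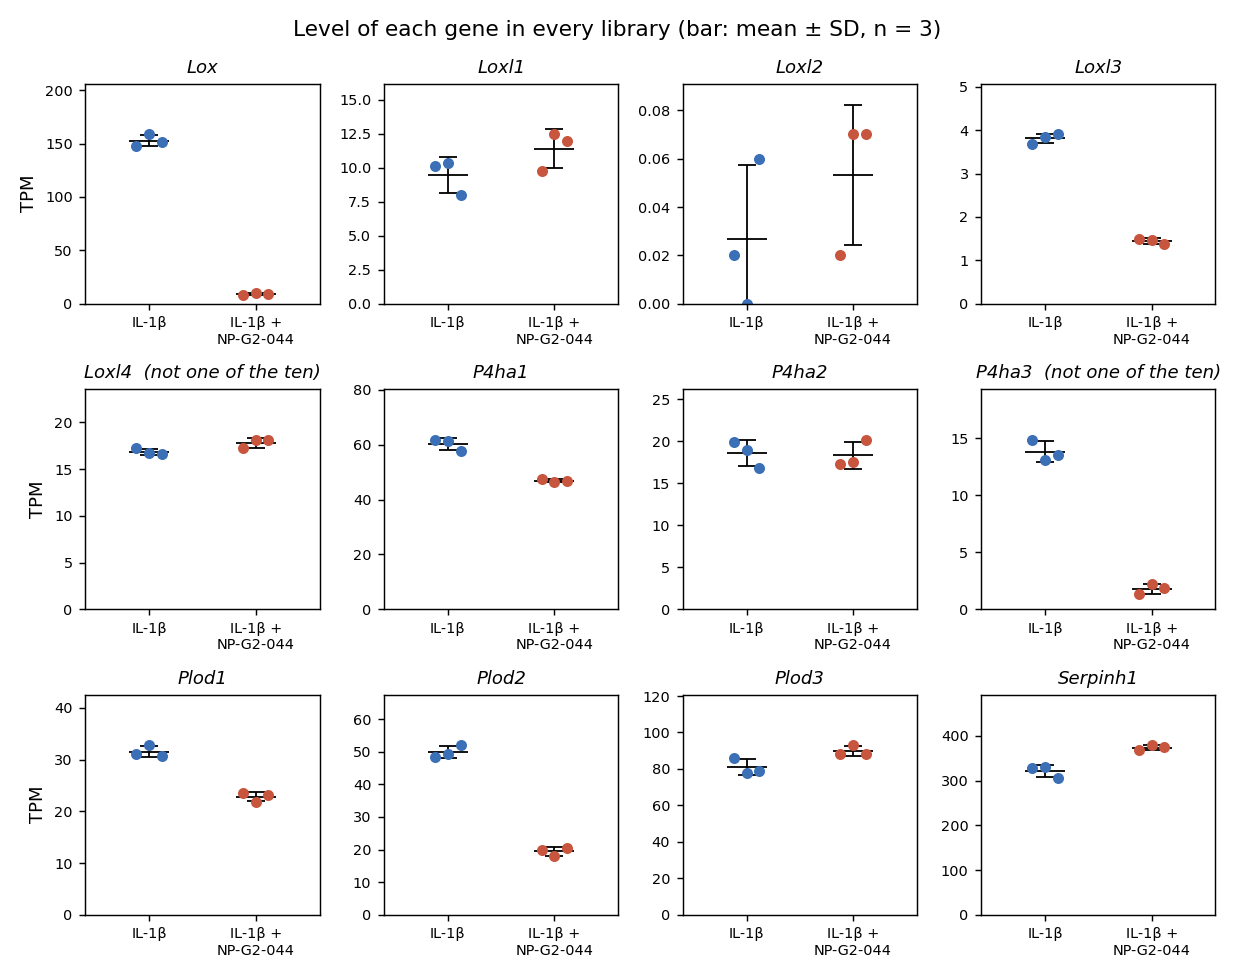
TPM in each of the 6 libraries for the 10 genes and their relatives Loxl4 and P4ha3, with the mean and SD of each group (n = 3) as black bars; each vertical axis starts at 0 and has its own scale. Lox sits at 148 to 159 TPM in the IL-1β libraries and at 8.57 to 9.78 TPM with NP-G2-044, whereas the points of Loxl1, Loxl2 and P4ha2 overlap.

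With IL-1β alone the other lysyl oxidases were far less abundant than Lox, and their changes differed in direction. Loxl3, a relative of Lox with scavenger receptor domains, had 3.68, 3.84 and 3.90 TPM with IL-1β and 1.49, 1.47 and 1.38 TPM with NP-G2-044. Its groups did not overlap, and its log2 fold change was −1.37 (standard error 0.119), 2.58-fold lower. Exons of Htra2 on the opposite strand share 535 bases (11.6%) with those of Loxl3. Htra2 is far more abundant and rose by 0.54 on the log2 scale, the opposite direction. The sources used here do not say whether reads were counted by strand.

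Loxl1, the closest relative of Lox and known from elastic fibre assembly, had 10.1, 10.3 and 7.97 TPM with IL-1β and 9.79, 12.4 and 12 TPM with the inhibitor. The ranges overlap, because inhibitor replicate 1 lies below IL-1β replicates 1 and 2. Its log2 fold change was 0.30 (standard error 0.110), and the call was lost without inhibitor replicate 2 (0.24) and without inhibitor replicate 3 (0.26). Loxl2 had 1, 0 and 3 reads with IL-1β and 1, 4 and 4 reads with the inhibitor, at most 0.07 TPM. The ratio of its pooled reads, inhibitor over IL-1β and scaled by the totals, was 2.14, and its 95% interval (exact, binomial) ran from 0.597 to 9.5, so that no difference was detectable at this depth. The interval covers counting error only. Loxl4, the family member outside the 10, had 17.2, 16.7 and 16.6 TPM against 17.2, 18.1 and 18.1 TPM. On the log2 scale it differed by 0.11 (standard error 0.0438; adjusted p = 0.017 by the quasi-likelihood test of edgeR), and this call was lost under DESeq2 and several other settings.

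With Lox so much lower, the make-up of the lysyl oxidase family differed between the groups. Of the summed TPM of the 5 lysyl oxidases, Lox held 82.7%, 83.7% and 84.1% with IL-1β alone and 23.1%, 23.4% and 22.6% with the inhibitor. With the inhibitor, Loxl4 held the greatest share, 44.7% ± 1.63 (SD, n = 3), followed by Loxl1 with 28.5% ± 1.85. The summed level of the family went from 183 ± 5.73 TPM to 39.9 ± 2.5 TPM (± SD, 3 libraries each). The means of Loxl1, Loxl2 and Loxl4 were slightly higher with the inhibitor and that of Loxl3 was lower. As a ratio of means the family sum was 4.58-fold lower, against 16.5-fold for Lox in the edgeR fit. These shares restate the same comparison and carry no test.

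Prolyl 4-hydroxylase is a tetramer of catalytic α subunits, from P4ha1, P4ha2 or P4ha3, and β subunits from P4hb. P4ha1, the main α subunit in most cells, had 61.7, 61.2 and 57.7 TPM with IL-1β and 47.6, 46.5 and 46.6 TPM with NP-G2-044. All 3 inhibitor libraries were below all 3 IL-1β libraries, but the change was small next to that of Lox, a log2 fold change of −0.33 (standard error 0.0341) or 20.3% lower. P4ha2, which is known as prominent in chondrocytes and other connective tissue cells, was below P4ha1 in every library here. It had 19.9, 19.0 and 16.9 TPM against 17.3, 17.6 and 20.2 TPM. Its ranges overlap on both sides. The log2 fold change of P4ha2 was 0.01 (standard error 0.0713) with a 95% interval from −0.13 to 0.16. The difference between P4ha2 and P4ha1 was not tested.

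P4ha3, the α subunit outside the 10, had 14.8, 13.1 and 13.5 TPM with IL-1β and 1.32, 2.19 and 1.87 TPM with the inhibitor. It fell 7.48-fold, a log2 fold change of −2.90 (standard error 0.121; edgeR adjusted p = 4.15e-27). P4ha3 thereby went from 14.9% ± 0.786 to 2.67% ± 0.660 of the summed TPM of the α subunits (± SD, 3 libraries each), while P4ha2 went from 20.1% to 27.3%. The β subunit gene P4hb, which also encodes the general disulfide isomerase PDI, fell from 602 ± 8.19 TPM to 368 ± 5.86 TPM (± SD, 3 libraries each; log2 fold change −0.68, standard error 0.0269; edgeR adjusted p = 4.31e-29). Since the summed α subunits went from 92.6 TPM to 67.0 TPM, there were 15.4 ± 0.511 TPM of α subunits per 100 TPM of P4hb with IL-1β and 18.2 ± 0.636 with the inhibitor (± SD, 3 libraries each).

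**Figure D2:**
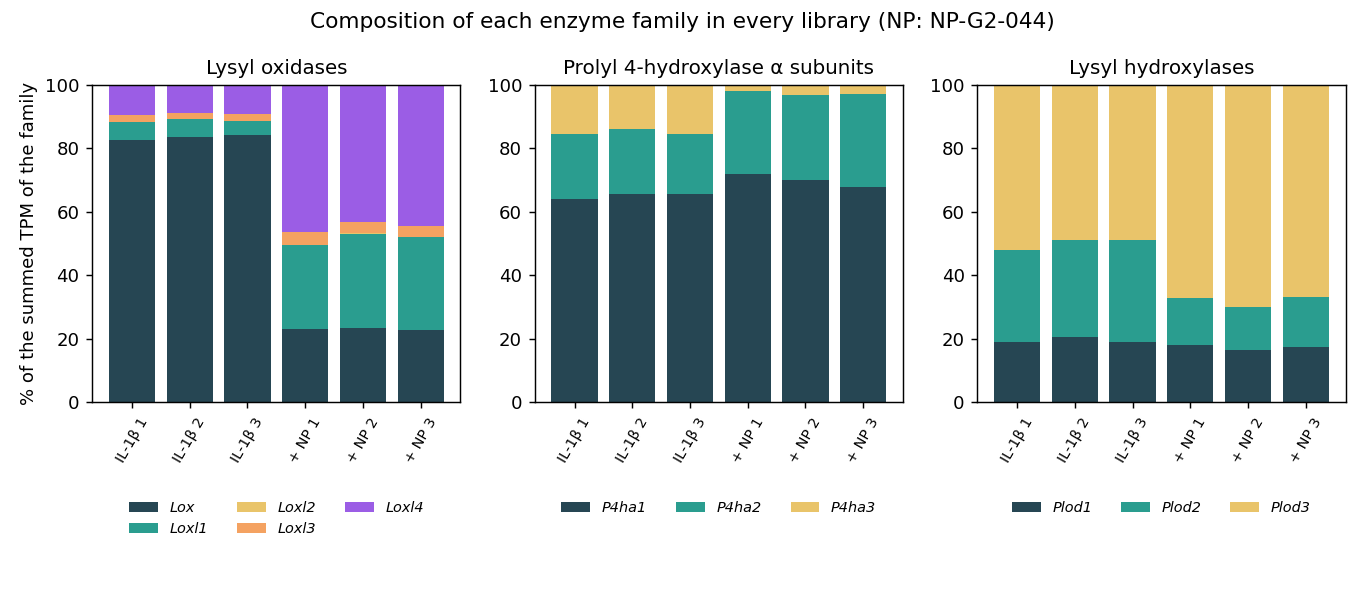
Share of each gene in the summed TPM of its family (vertical axis, percent) in each library, as stacked bars for the lysyl oxidases, the prolyl 4-hydroxylase α subunits and the lysyl hydroxylases. Lox fills 82.7% to 84.1% of the lysyl oxidase bars with IL-1β and 22.6% to 23.4% with NP-G2-044.

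The lysyl hydroxylases moved in different directions. Plod2, which hydroxylates the telopeptide lysines from which the most stable crosslinks form, had 48.3, 49.2 and 51.9 TPM with IL-1β and 19.8, 18.0 and 20.6 TPM with NP-G2-044. The groups were far apart relative to their spread, 49.8 ± 1.88 TPM against 19.4 ± 1.32 TPM (± SD, 3 libraries each), 2.5-fold lower, with a log2 fold change of −1.32 (standard error 0.0427). Exons of an unclassified transcript on the opposite strand share 346 bases (6.42%) with those of Plod2.

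Plod1, which hydroxylates lysines within the helix, had 31.2, 32.7 and 30.7 TPM against 23.5, 21.9 and 23.2 TPM. Its groups did not overlap, and its log2 fold change was −0.43 (standard error 0.0455), 25.9% lower. Plod3, which can also add sugars to hydroxylysine, had 86.0, 77.9 and 78.8 TPM against 88.1, 92.9 and 88.5 TPM. IL-1β replicate 1 came close to the inhibitor libraries without reaching them, and the log2 fold change of Plod3 was 0.18 (standard error 0.0370), 13.5% higher. Znhit1 on the opposite strand shares 529 exonic bases (11.7%) with Plod3 and had a log2 fold change of −0.18. Plod2 held 30.7% ± 1.49 of the summed lysyl hydroxylase TPM with IL-1β and 14.7% ± 1.04 with NP-G2-044, and Plod3 held 49.9% ± 1.84 and 68.0% ± 1.73 (± SD, 3 libraries each).

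Serpinh1 was the most abundant of the 10 genes in both groups. Its chaperone HSP47 binds the folded procollagen helix in the ER and releases it in the Golgi. It had 329, 330 and 306 TPM with IL-1β and 369, 379 and 374 TPM with the inhibitor. The groups did not overlap, and the log2 fold change was 0.25 (standard error 0.0295), 18.9% higher.

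Of the 10 genes 9 had enough reads to be tested, all but Loxl2. With an adjusted p under 0.05 from edgeR, 5 were lower and 3 were higher with NP-G2-044, beside 39.8% of all tested genes lower and 40.2% higher. With a log2 fold change above 1 in size as well, Lox, Loxl3 and Plod2 were lower and none was higher, beside 10.1% of all tested genes lower and 6.48% higher. Library ranges did not overlap for 7 of the 9, beside 79.4% of all tested genes. Because this same comparison was known when the genes were chosen, nothing is read from these counts. The median log2 fold change was −0.33 over the 9 genes and 0.002 over all tested genes.

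By level, the order with IL-1β was Serpinh1, Lox, Plod3, P4ha1, Plod2, Plod1, P4ha2, Loxl1, Loxl3 and Loxl2, and no library range of a gene overlapped that of its neighbour. With NP-G2-044 the order was Serpinh1, Plod3, P4ha1, Plod1, Plod2, P4ha2, Loxl1, Lox, Loxl3 and Loxl2. Plod2 and P4ha2 overlapped there, at 18.0 to 20.6 TPM and 17.3 to 20.2 TPM, and Lox at up to 9.78 TPM came within reach of the lowest Loxl1 library at 9.79 TPM.

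**Figure D3:**
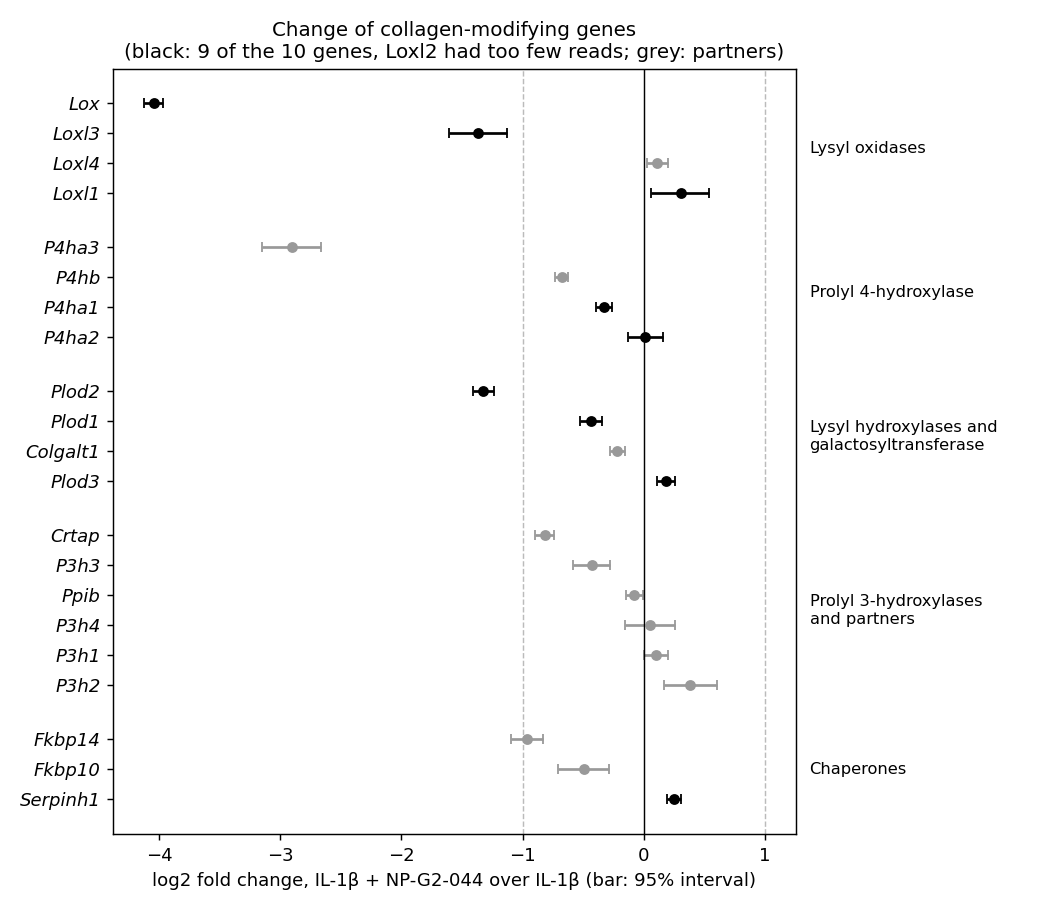
Log2 fold change of the inhibitor libraries over the IL-1β libraries with its 95% interval for 9 of the 10 genes (black) and for relatives and selected ER partners (grey), grouped by role; dashed lines mark a log2 fold change of 1 in either direction. Lox (−4.04), P4ha3 (−2.90), Loxl3 (−1.37) and Plod2 (−1.32) lie beyond the left line and no gene lies beyond the right one.

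Sister genes differed within both hydroxylase families, and RefSeq promoter windows were at hand for 5 of the 10 genes, each covering 250 bases before and 50 bases after an annotated start in build GRCm38.p6, which is mm10. The windows of P4ha1, which was lower, and P4ha2, which was not called, are shown as a pair, followed by those of Plod1, which was lower, and Plod3, which was higher. Hypoxia-inducible factor (HIF), for which several of these enzymes are textbook target genes, binds sites with the core ACGTG or GCGTG. Only the form ACGTG was searched. Capitals mark ACGTG, read as CACGT where it lies on the other strand, and GCGTG is left unmarked. P4ha1 lies at chr10:59323046-59323345 on the plus strand, P4ha2 at chr11:54100674-54100973 on the plus strand, Plod1 at chr4:147936727-147937026 on the minus strand and Plod3 at chr5:136986769-136987068 on the plus strand.
P4ha1: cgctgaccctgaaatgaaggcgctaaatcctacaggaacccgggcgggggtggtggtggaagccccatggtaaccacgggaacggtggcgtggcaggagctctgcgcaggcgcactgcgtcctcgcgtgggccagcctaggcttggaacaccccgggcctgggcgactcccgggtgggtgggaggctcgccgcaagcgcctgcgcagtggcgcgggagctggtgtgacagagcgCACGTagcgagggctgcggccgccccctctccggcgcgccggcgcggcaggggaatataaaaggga
P4ha2: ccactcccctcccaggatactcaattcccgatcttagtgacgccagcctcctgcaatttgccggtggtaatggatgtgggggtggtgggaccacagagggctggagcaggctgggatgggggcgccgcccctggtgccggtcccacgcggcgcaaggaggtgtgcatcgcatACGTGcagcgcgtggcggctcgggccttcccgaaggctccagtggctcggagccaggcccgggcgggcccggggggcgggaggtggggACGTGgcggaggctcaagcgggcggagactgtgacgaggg
Plod1: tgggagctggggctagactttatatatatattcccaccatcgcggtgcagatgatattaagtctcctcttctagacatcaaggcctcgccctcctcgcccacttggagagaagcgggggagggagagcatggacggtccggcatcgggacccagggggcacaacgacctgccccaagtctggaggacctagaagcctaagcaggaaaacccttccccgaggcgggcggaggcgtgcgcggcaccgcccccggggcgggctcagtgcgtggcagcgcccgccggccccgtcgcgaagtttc
Plod3: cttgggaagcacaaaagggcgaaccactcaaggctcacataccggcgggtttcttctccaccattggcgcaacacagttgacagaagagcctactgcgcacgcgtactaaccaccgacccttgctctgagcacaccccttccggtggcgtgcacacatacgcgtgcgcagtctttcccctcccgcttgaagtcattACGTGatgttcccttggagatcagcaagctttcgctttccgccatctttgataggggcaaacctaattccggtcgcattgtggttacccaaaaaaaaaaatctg
ACGTG occurred once in P4ha1, on the other strand, with its first base at −16 from the start used for its window. The gene record of P4ha1 begins further upstream, at 59323197, so this match lies within the annotated gene. In P4ha2 ACGTG occurred at −78 and 10. Plod3 and Serpinh1 had 1 match each. Plod1 had no ACGTG, but its window holds GCGTG, so these matches do not tell windows with a HIF core from windows without. No match lay inside the E-box CACGTG, and 19.6% of all 32851 promoter windows of this length held ACGTG on either strand. A match describes the letters and not a bound site.

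The wider ER machinery of collagen modification was lower more often than higher. Of 13 tested genes of this list 9 fell and 2 rose in edgeR's test, with a median log2 fold change of −0.22. Each list is set beside all tested genes, of which 39.8% fell and 40.2% rose with a median of 0.002. Its most abundant genes were P4hb, Ppib and Sparc. Crtap, which forms the prolyl 3-hydroxylation complex with P3h1 and Ppib, fell from 112 ± 4.77 TPM to 62.3 ± 1.61 TPM (± SD, 3 libraries each; log2 fold change −0.82, standard error 0.0392; edgeR adjusted p = 1.62e-25). The other parts of that complex differed little: P3h1 had a log2 fold change of 0.10 (adjusted p = 0.0552 in edgeR's test) and Ppib one of −0.08 (adjusted p = 0.0437). P3h3, which works in a complex with Plod1, fell by 0.43 on the log2 scale, whereas P3h4 of the same complex was at 0.05 and not called. P3h2 rose by 0.39. Fkbp10, a prolyl isomerase that assists Plod2, fell by 0.49 and Fkbp14 fell by 0.96, whereas Colgalt1, which adds galactose to hydroxylysine, fell by 0.22 on the log2 scale. Sparc, a collagen-binding matrix protein, fell from 302 ± 13.7 TPM to 79.7 ± 2.25 TPM (± SD, 3 libraries each). Colgalt2 had too few reads to be tested.

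The fibrillar collagen chains, which are among the substrates of these enzymes, were lower as a group. Of 9 tested fibrillar collagen chain genes 8 fell and 1 rose, with a median log2 fold change of −1.83. Of the 11 chains 5 stayed under 1 TPM in every library, so some of these calls rest on few reads. Col2a1 had 32 reads with IL-1β against 6 with the inhibitor, and Col27a1 had 58 against 11. Col5a3, the 1 that rose, had 15 against 60. Col1a2 fell from 1098 to 331 TPM (log2 fold change −1.70), Col5a1 by 1.83, Col3a1 by 2.31 and Col1a1 by 2.80 on the log2 scale, and Col5a2 was the other abundant chain. Col1a1 and Col3a1 were at low levels in both groups, 8.76 against 1.23 TPM and 7.45 against 1.47 TPM. The summed fibrillar chain level went from 1394 ± 29.4 TPM to 444 ± 8.52 TPM (± SD, 3 libraries each), most of it Col1a2 in both groups. Set against it, there were 10.9 ± 0.163 TPM of Lox per 100 TPM of fibrillar chains with IL-1β and 2.07 ± 0.125 with the inhibitor. For the whole lysyl oxidase family the ratio differed less, 13.1 ± 0.134 against 8.99 ± 0.561 TPM. Against the fibrillar chains, the hydroxylases and the chaperone went the other way. Per 100 TPM of these chains, the prolyl 4-hydroxylase α subunits went from 6.64 to 15.1 TPM. The lysyl hydroxylases went from 11.6 to 29.8 TPM and Serpinh1 from 23.1 to 84.3 TPM on the same scale. The summed levels of both hydroxylase families were themselves lower with the inhibitor, 92.6 against 67.0 TPM and 162 against 132 TPM. Their ratios were higher because the chains differed by more. These ratios were formed after the levels had been seen and have no test. They leave out all collagens other than the fibrillar chains, so they do not describe collagen as a whole.

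Genes that act on procollagen after the ER split by step. Of 12 genes of export from the ER, 7 rose and 1 fell, with a median log2 fold change of 0.14. The most abundant, Sec31a, Sec13 and Sar1a, had log2 fold changes of 0.32, 0.29 and −0.015 (not called for Sar1a), and the 1 that fell was the transcription factor Creb3l1, at −3.47 (standard error 0.176; edgeR adjusted p = 1.75e-24). Of 6 tested genes of procollagen processing outside the cell 5 fell and 1 rose, with a median of −1.95. Pcolce, which enhances cleavage of the C-propeptide, fell from 766 ± 7.79 TPM to 108 ± 0.653 TPM (± SD, 3 libraries each; log2 fold change −2.80, standard error 0.0309; edgeR adjusted p = 1.15e-54). Bmp1, the protease that removes the C-propeptide and also activates the Lox proenzyme, fell by 0.66, and Pcolce2 by 1.10 on the log2 scale.

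Partners of Lox in elastic fibres were mixed. Of 7 tested genes 4 fell and 3 rose, with a median log2 fold change of −0.41. Fn1, Emilin1 and Efemp2 were the most abundant, at 0.24, −1.49 and −0.89 on the log2 scale, and Efemp2, which carries Lox to tropoelastin, fell from 62.3 to 32.9 TPM. Elastin itself was at most 0.03 TPM in any library.

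**Figure D4:**
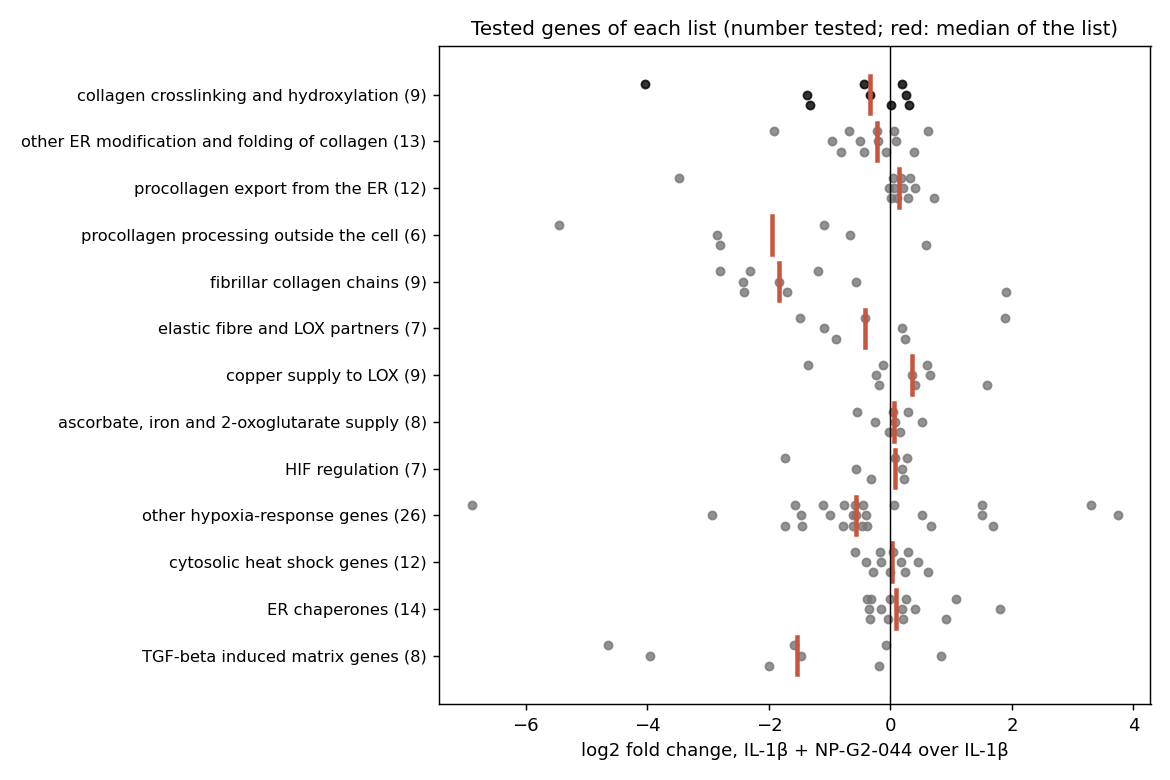
Log2 fold change of the inhibitor libraries over the IL-1β libraries (horizontal axis) for every tested gene of each list, 1 dot per gene, with the median of the list as a red bar and the number tested in brackets. The bars of procollagen processing (−1.95) and fibrillar chains (−1.83) lie furthest left, and that of the 9 crosslinking and hydroxylation genes lies at −0.33.

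Genes of cofactor supply were mixed. Of 9 tested copper genes 5 rose and 3 fell, with a median log2 fold change of 0.36. Slc31a1, the copper importer, rose from 33.3 ± 1.42 TPM to 50.8 ± 1.74 TPM (± SD, 3 libraries each), and Atp7a, the pump that loads copper into lysyl oxidases in the Golgi, fell by 0.24 on the log2 scale. Mt1, Cox17 and Atox1 were the most abundant, at 1.6, 0.61 and −0.12. Mt1 shares sequence with Mt2, which had almost no reads, so the division of reads between them is uncertain. For the hydroxylases, which need iron, ascorbate and 2-oxoglutarate, 4 of 8 tested supply genes rose and 2 fell, with a median of 0.06, and Pcbp1, Idh2 and Glud1 had log2 fold changes of 0.08, −0.56 and 0.16.

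Pathways known to act on these enzymes were described by lists as well. Among 7 tested genes of HIF regulation 3 rose and 3 fell, with a median of 0.08. Hif1a was the most abundant and fell by 0.32, Arnt rose by 0.19 and Egln1, an oxygen-sensing hydroxylase, fell by 0.57 on the log2 scale. Egln3, at 0.513 TPM with IL-1β, fell by 1.74. Of 26 tested hypoxia-response genes 18 fell and 7 rose, with a median of −0.57. Gapdh, Ldha and Pgam1 were the most abundant and fell by 0.62, 1.47 and 0.57, whereas Vegfa rose by 1.68 on the log2 scale. Of 8 tested TGF-β induced matrix genes 6 fell and 1 rose, with a median of −1.53. Bgn fell by 1.58 and Tgfbi fell by 4.65 on the log2 scale.

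Serpinh1 is a textbook target of heat shock factor, and 5 of 12 tested cytosolic heat shock genes rose and 5 fell, with a median of 0.02. Hspa8 and Hsp90ab1 fell by 0.17 and 0.40, and Hsp90aa1 rose by 0.30. Hsf1, which encodes the factor, rose by 0.17. Among 14 ER chaperones 7 rose and 5 fell, with a median of 0.09. Hspa5, which encodes BiP, rose from 256 ± 4.93 TPM to 879 ± 14.6 TPM (± SD, 3 libraries each; log2 fold change 1.81, standard error 0.0273; edgeR adjusted p = 1.82e-48). Calr rose by 0.26, and Hsp90b1 was at −0.04 and not called. The part of any of these pathways in the changes of the 10 genes was not tested.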

How the data were processed

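The deposited table gives an estimated count (read_count), TPM and FPKM per gene and library, made by the authors with each library on its own. The deposited expected counts are not normalized, and 10.2% to 11.1% of them per library are not whole. FPKM served only as an alternative, and the authors' group means of the 3 measures were not used. Sequencing and quantification were done by BGI according to the methods. The submitters' processing notes name cutadapt, HISAT2 2.0, StringTie and mm10, and the sources used here give neither the annotation nor the counting tool nor its use of strand. The labels name Illumina TruSeq libraries of total RNA.

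Counts were rounded, filtered with filterByExpr (minimum count 10), normalized with TMM and compared with edgeR 4.0.16 in R 4.3.3 (glmQLFit with robust estimation, glmQLFTest, 3 libraries against 3, no covariate), adjusting p-values over all 11983 genes tested. The standard error is the log2 fold change divided by the square root of F, and intervals use the t distribution of that test. A gene was called at an adjusted p below 0.05, and separately with a log2 fold change above 1 in size. Fold changes are inhibitor over IL-1β. A gene that rose or fell passed the first threshold. The 10 genes and all lists were chosen with earlier results of these data known. Besides the 10 genes, the text names genes by a rule: partners fixed by name and the 3 genes of highest mean TPM in each list. A gene that this rule names is not reported here. Cd68, Creb3l1, Fkbp14, Htra2 and Znhit1 were named after their values were seen. The common coefficient of variation between replicates was 2.33%, so that small changes pass the test. Exon overlaps come from GENCODE vM21. The steps were tested on simulated counts. Alternatives were RLE size factors, library size alone, DESeq2 1.42.0, limma 3.58.1 on log2(TPM + 1), other filters, a replicate block and each library left out.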

Additional observations from a re-analysis of the deposited data

How the results depend on the processing

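Lox, Loxl3, P4ha1, Plod1, Plod2, Plod3 and Serpinh1 kept their direction and their call under every alternative that tested the gene. Since 39.8% of all tested genes were called lower and 40.2% higher, a kept call does not set these genes apart. Loxl3 was at −0.97 with limma, under the fold cutoff, on a scale that understates the change of low genes, and dropped out of the test at the filter of 10 CPM in 3 libraries. P4ha2, which was not called, changed sign at −0.019 with limma on log2(TPM + 1), at −0.016 with the filter of 10 CPM, and at −0.06 and −0.065 without IL-1β replicate 3 and inhibitor replicate 3, and ranged from −0.065 to 0.073 with a library left out. Past both cutoffs, the counts over all genes were 1211 lower and 776 higher. They became 802 and 514 with limma and 680 and 484 with the filter of 10 CPM, which tests 9447 genes, rose to 1556 and 1011 with no filter on low counts, and ranged from 1216 to 1276 and from 785 to 822 with a library left out. Shares of counts in place of TPM, which keep transcript length in, put Lox at 23.6% of its family with the inhibitor, P4ha3 at 9.86% with IL-1β and 1.73% with the inhibitor, and Plod2 at 34.4% and 17.0%. Same-numbered libraries did not deviate together (correlations −0.087, −0.015 and 0.034, against up to 0.112 between unequal numbers), and with the replicate block the counts were 1209 lower and 775 higher. Loxl2 and elastin are limited by depth.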
